A study of Mus musculus with 32 samples.

Results

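The circadian clock genes described here are the 10 core members *Arntl*, *Clock*, *Per1*, *Per2*, *Per3*, *Cry1*, *Cry2*, *Nr1d1*, *Nr1d2* and *Dbp*. They were chosen by symbol, through GENCODE M21, from a list of core clock genes, and all 10 were found among the 53715 genes of the deposited tables. Polyadenylated RNA of 2 brain regions, amygdala and hippocampus, was sequenced in each of 16 adult males, 4 per genotype, which gave 32 libraries with expected counts per gene. All mice were F1 offspring of 129S1/SvImJ *Kmt2a*+/- fathers and C57BL/6J *Kdm5c*+/- mothers. WT mice carried both wild-type genes. *Kmt2a*-HET mice lacked 1 copy of *Kmt2a*, which encodes a histone H3K4 methyltransferase, and *Kdm5c*-KO mice lacked the X-linked *Kdm5c*, which encodes an H3K4 demethylase. Double mutants (DM) carried both mutations. The mutations were carried in all tissues from the germline, and no treatment was given in the labels. Mice are named here by genotype and by the number in the labels (WT1 to WT4), and the same number in another genotype is another mouse. The time of day at dissection is not given in the sources used here.

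The clock is a transcriptional feedback loop that runs in most cells of the body. The proteins of *Arntl* (BMAL1) and *Clock* bind E-box sequences as a pair and drive *Per*, *Cry*, *Nr1d1*, *Nr1d2* and *Dbp*. PER and CRY proteins then repress the pair, NR1D1 and NR1D2 (REV-ERB) repress *Arntl*, and DBP activates genes through D-box sequences. In brain tissue outside the suprachiasmatic nucleus the same loop runs with a daily rhythm. *Dbp* and *Arntl* peak at nearly opposite times of day, and *Per1* is also induced by neuronal activity and by glucocorticoids.

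Promoters are shown because these genes are linked through short motifs in them. Windows of 250 bases before the RefSeq start sites (GRCm38.p6) were searched on both strands for an E-box (CACGTG), its variant CACGTT, the D-box TTATGTAA or TTACGTAA, the REV-ERB and ROR element (RORE), and the cAMP response element TGACGTCA. Of 10 members, 9 had a window in the table. The E-box was held by 6.02% of all 32851 windows, the variant by 3.85%, the D-box by 0.931%, the REV-ERB and ROR element by 0.35% and the cAMP response element by 1.55%. *Per1* and *Cry1* held 1 E-box each, *Cry1*, *Cry2* and *Nr1d1* held 1 variant each, and *Per3* held 2 D-boxes. The windows of *Dbp*, *Arntl*, *Clock* and *Nr1d2* held no match to these letters. *Ciart*, a clock-controlled repressor outside the 10 members, held 3 E-boxes. Below, capitals mark E-boxes in *Per1* (chr11:69098699-69098948, + strand) and *Ciart* (chr3:95882229-95882478, - strand), the variant followed by the E-box in *Cry1* (chr10:85185055-85185304, - strand), and D-boxes in *Per3* (chr4:151044666-151044915, - strand). A match is a description of the letters and not of binding.
Per1: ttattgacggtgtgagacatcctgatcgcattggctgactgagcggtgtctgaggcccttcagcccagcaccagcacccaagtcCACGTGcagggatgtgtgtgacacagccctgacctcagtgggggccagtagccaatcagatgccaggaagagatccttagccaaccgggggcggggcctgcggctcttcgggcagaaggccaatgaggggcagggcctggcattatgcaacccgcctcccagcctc
Cry1: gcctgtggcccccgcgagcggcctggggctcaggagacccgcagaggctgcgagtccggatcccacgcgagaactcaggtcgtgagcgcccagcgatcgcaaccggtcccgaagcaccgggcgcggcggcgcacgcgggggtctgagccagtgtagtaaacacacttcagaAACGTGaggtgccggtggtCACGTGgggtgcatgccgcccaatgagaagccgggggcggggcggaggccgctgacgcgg
Per3: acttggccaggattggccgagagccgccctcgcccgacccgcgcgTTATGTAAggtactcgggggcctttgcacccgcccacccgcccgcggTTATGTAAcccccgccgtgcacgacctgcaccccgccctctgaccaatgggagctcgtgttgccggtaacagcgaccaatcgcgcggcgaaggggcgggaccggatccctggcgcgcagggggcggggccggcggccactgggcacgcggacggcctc
Ciart: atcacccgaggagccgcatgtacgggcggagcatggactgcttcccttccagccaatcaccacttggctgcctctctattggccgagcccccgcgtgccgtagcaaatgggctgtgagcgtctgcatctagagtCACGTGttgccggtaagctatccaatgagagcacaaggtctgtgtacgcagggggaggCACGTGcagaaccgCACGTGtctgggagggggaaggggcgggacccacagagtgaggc

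Gene counts summed to 19215489 to 26033593 in amygdala libraries and to 19322259 to 27798976 in hippocampal ones. The 4 mice numbered 1 stood apart. Their amygdala libraries had 21731 to 22611 genes with a count, against 22534 to 23216 in the other 12, and *Fos*, an immediate early gene, lay at 331 to 461 normalised counts against 58.3 to 345. In the hippocampus *Fos* lay at 169 to 425 against 28.7 to 332. *Kmt2a* counts overlapped between genotypes in both regions, and *Kdm5c* counts in mice without *Kdm5c* were 1225 to 1434 in the amygdala, against 1227 to 2026 in WT. These are counts over the whole gene, to which reads outside a deleted part also add, so they check the labels only in part. Summed hippocampal markers (*Prox1*, *C1ql2*, *Zbtb20*, *Wfs1*) ranged from 6481 to 9581 in amygdala libraries and from 7188 to 30091 in hippocampal ones, and 3 of 4 were higher on average in the hippocampus. Summed choroid plexus markers ranged from 763 to 40257 and from 882 to 103078.

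Levels of the clock genes were compared per kilobase of transcript, as normalised counts divided by transcript length. In the amygdala *Dbp* was highest at 1713 ± 348 (SD, n = 16), followed by *Nr1d1* at 1027 ± 112, *Cry2* at 927 ± 42.7, *Per1* at 570.0 ± 63.5 and *Nr1d2* at 507 ± 59.8. *Clock* (178 ± 37.8), *Per3* (153 ± 16.6), *Arntl* (143 ± 27.8), *Cry1* (138 ± 15.9) and *Per2* (109 ± 16.04) followed. In this order *Nr1d1* and *Cry2*, *Per1* and *Nr1d2*, and the neighbours from *Clock* down to *Per2* differed by less than the sum of their SDs. In the hippocampus *Dbp* (1159.6 ± 215), *Nr1d1* (1025 ± 125) and *Cry2* (1023 ± 94.7) lay together at the top, and *Cry1* was lowest at 86.7 ± 13.8. The deposited transcript counts gave most of each gene to 1 transcript, and in the hippocampus the share ran from 81.8 ± 5.70% for *Per3* to all of it for *Per2*. *Clock* was the exception, with, in the amygdala, 70.2 ± 7.60% in one transcript and 24.02 ± 6.89% in another.

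Counts of *Dbp* and *Nr1d1* were not whole numbers in any of the 32 libraries. Exons of *Dbp* (chr7:45705088-45710203, mm10) overlap those of *Sphk2* on the other strand over 539 bases, 18.0% of its exon length. Exons of *Nr1d1* (chr11:98767932-98775333) overlap those of *Thra* over 263 bases, 8.55% of its exon length. *Thra* had a mean of 20224 normalised counts against 2744 for *Nr1d1*, and *Sphk2* had 846 against 2611 for *Dbp*. How reads in these overlaps were shared is not given in the sources used here, and values of both genes are uncertain to that extent.

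The first question was whether loss of *Kmt2a*, *Kdm5c* or both changed the clock genes. No member passed the test in any of the 5 comparisons between genotypes in the amygdala or in the hippocampus. The output arm is shown first. In the amygdala *Dbp*, normalised to the 16 libraries of the region, was 3821, 3204, 2748 and 2169 in WT1 to WT4, and 3111, 3232, 2283 and 3316 in *Kmt2a*-HET1 to 4. It was 4199.8, 3617, 2282 and 2877 in *Kdm5c*-KO1 to 4, whereas the values were 4029.8, 3311, 2831 and 4203 in DM1 to DM4. Every genotype thus held low and high mice, and the groups overlapped. In DM the log2 fold change against WT was 0.27 ± 0.20 (SE), the highest of any member.

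*Arntl*, the activator, was 368, 431, 522 and 543 in the amygdala of WT1 to WT4, and 367, 463, 323 and 283 in that of DM1 to DM4. It was 421, 358, 481 and 401 in *Kmt2a*-HET mice and 442, 411, 319 and 519 in *Kdm5c*-KO mice. The groups overlapped, although DM3 and DM4 lay below every WT mouse and DM1 level with the lowest of them. Its log2 fold change in DM was -0.37 ± 0.18 (95% interval -0.73 to -0.02), with an unadjusted *p* of 0.0379 in the DESeq2 Wald test and an adjusted *p* of 0.695. In the hippocampus *Arntl* was 415, 562, 547 and 594 in WT and 602, 584, 564 and 368 in DM, where DM4 alone was low, and the log2 fold change was -0.00029 ± 0.17.

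**Figure D1:**
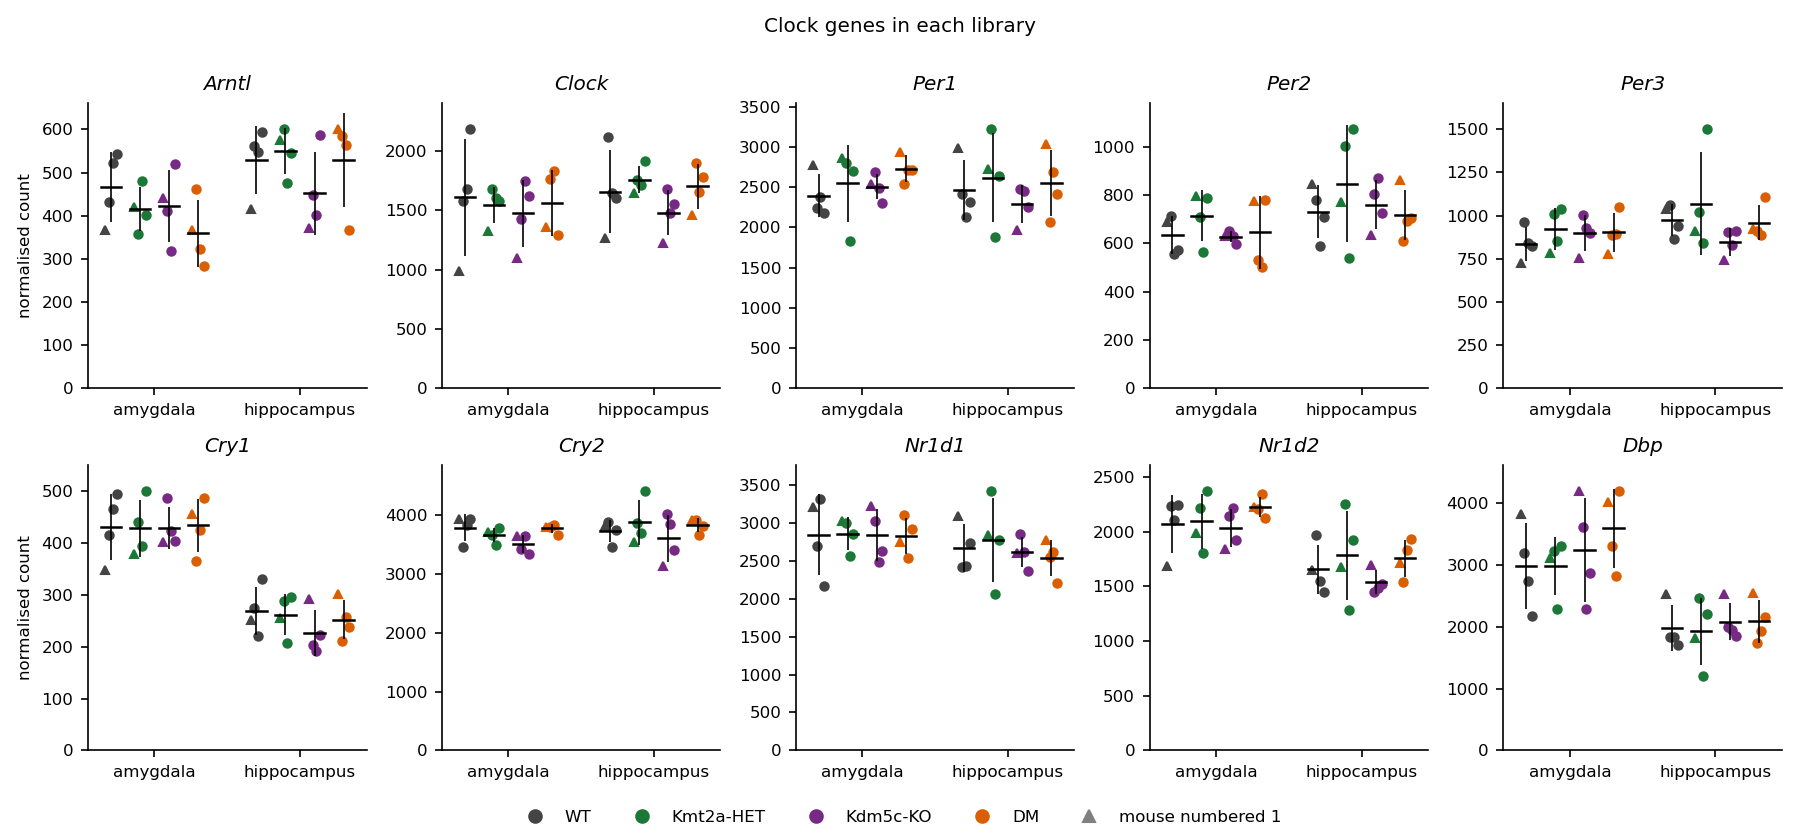
Normalised counts of the 10 clock genes in each of 32 libraries, with the amygdala left and the hippocampus right in each panel and genotypes in 4 colours. Triangles are the mice numbered 1, horizontal lines are means and vertical lines SD (n = 4). Genotypes overlap, except for *Cry2* in the amygdala between *Kdm5c*-KO (3335 to 3649) and DM (3665 to 3836). *Dbp* and *Cry1* lie lower in the hippocampus.

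Over the 3 mutants, 2 regions and 10 members, the 60 log2 fold changes against WT ran from -0.37 to 0.27, with a median size of 0.07. Only the value of *Arntl* in DM had an unadjusted *p* under 0.05, and edgeR called 0 members as well. The 95% intervals lay between -0.73 and 0.66, so that a doubling or halving lay outside all 60 of them. The SEs ranged from 0.0593 to 0.201.

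Over all genes, *Kmt2a*-HET against WT called 0.00988% in the amygdala (3 of 30355). In the hippocampus it called 0%, by edgeR also 0 genes, and 715 had an unadjusted *p* under 0.05. For *Kdm5c*-KO against WT the shares were 0.756% and 1.01%, and for DM against WT 0.990% and 0.881%. DM against *Kdm5c*-KO called 0.00329% and 0.00670%, and DM against *Kmt2a*-HET called 0.805% and 0.606%. With shares this low, a count of 0 among 10 members is at the background. The 3 comparisons with WT share the WT mice.

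**Figure D2:**
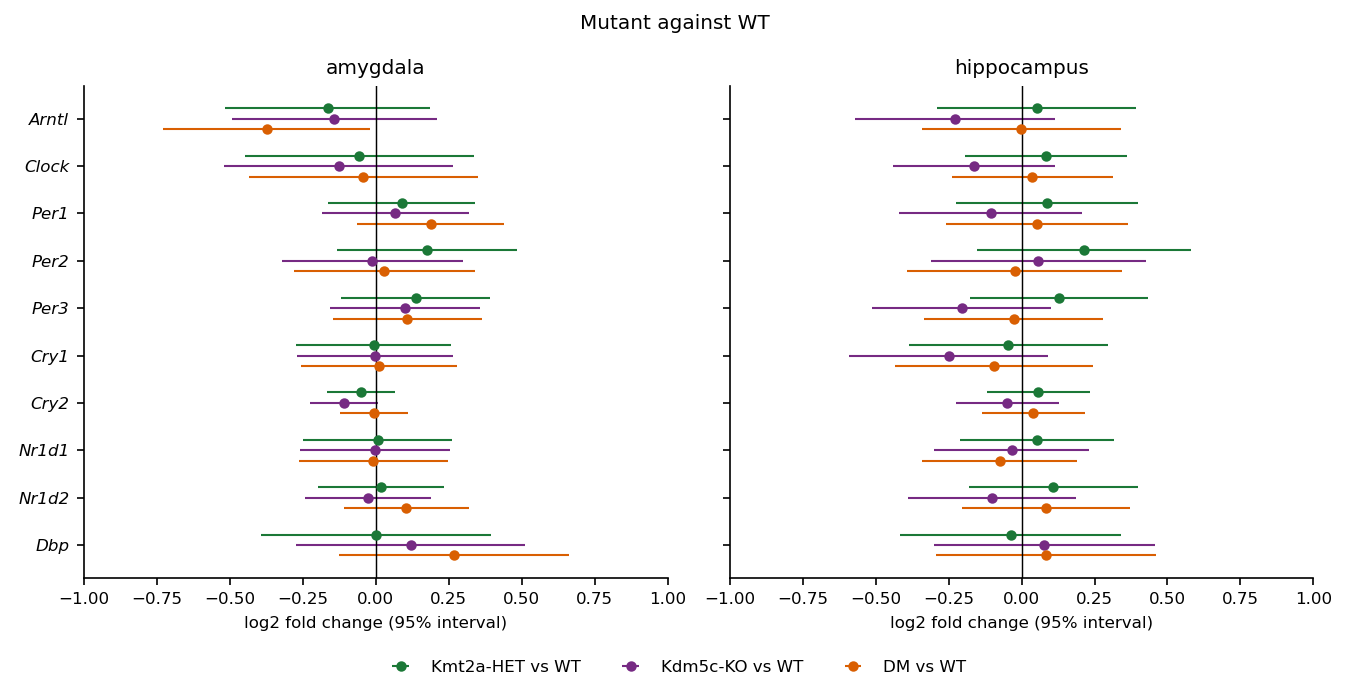
Log2 fold change of each clock gene in each mutant against WT, with 95% intervals, in the amygdala (left) and the hippocampus (right). All 60 intervals lie within 1 log2 unit of 0, and only that of *Arntl* in DM amygdala leaves 0 out.

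By role, the ranges against WT differed in width, and the roles were not compared by a test. The *Per* genes, which encode the repressors that close the loop, ran from -0.21 (*Per3*, *Kdm5c*-KO hippocampus) to 0.21 (*Per2*, *Kmt2a*-HET hippocampus). *Cry1* ran from -0.25 to 0.01 and *Cry2* from -0.11 to 0.06. *Nr1d1* and *Nr1d2*, the repressors of *Arntl*, ran from -0.10 to 0.11. Signs were mixed. Against WT, 6 of 10 members were positive in *Kmt2a*-HET amygdala, 3 in *Kdm5c*-KO and 6 in DM, and in the hippocampus these counts were 8, 2 and 5. Amygdala medians over members were 0.0034, -0.0074 and 0.02, against -0.0017, -0.014 and -0.014 over all genes. Hippocampal medians over members were 0.07, -0.10 and 0.02, against 0, -0.00072 and 0.0015 over all genes. The effect of a mutation was also compared between the regions. No member differed, where 0%, 0.0125% and 0.0125% of 32039 genes were called for *Kmt2a*-HET, *Kdm5c*-KO and DM. For *Kmt2a*-HET 570 genes had an unadjusted *p* under 0.05 and edgeR called 0, and 0 members had one in any of the 3 tests.

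Among 20 other clock genes, *Wee1* passed a test between genotypes. *Wee1*, a cell cycle kinase gene under clock control, was 475, 535, 430.5 and 472 in WT hippocampus and 315, 425, 316 and 366 in *Kdm5c*-KO. It fell by 0.43 on the log2 scale (SE 0.12, DESeq2 adjusted *p* = 0.0745). Of 6 glucocorticoid-induced genes, *Sgk1*, a kinase gene, was higher in *Kdm5c*-KO hippocampus (0.53 ± 0.16, DESeq2 adjusted *p* = 0.0804), and 0 of 8 immediate early genes passed in any comparison.

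The second question was whether the regions differed. With all 32 libraries normalised together, 8 of 10 members differed between hippocampus and amygdala, 5 higher and 3 lower, where 44.7% of 24845 genes were called. The fit held genotype and region and did not pair the libraries of a mouse. A fit with the mouse as block, an alternative given below, also called 8. In bulk tissue fewer cells of a type and less RNA per cell cannot be told apart. Markers of other cells and areas moved with the region as well. The largest shift among the marker lists with more in the amygdala was striatal. Summed over *Drd1*, *Drd2*, *Adora2a*, *Ppp1r1b* and *Rgs9* it ran from 5137 to 39942 in amygdala libraries (median 22456) and from 2053 to 10917 in hippocampal ones (median 2558), and 5 of 5 genes were higher on average in the amygdala. Thalamic markers were higher there for 4 of 4 genes (median sum 2379.8 against 1172), oligodendrocyte markers for 5 of 5 (109372 against 91356) and amygdala markers for 3 of 4 (3767 against 1640.4). In the same order, median sums of astrocyte markers were 71219 and 98329, of endothelial markers 2854 and 3152, of microglial markers 5627 and 5751 and of blood markers 5546 and 6244. Single genes did not all follow these sums. Higher on average in the amygdala were 3 of 5 astrocyte, 1 of 4 endothelial, 4 of 5 microglial and 3 of 5 blood markers. The part of all these and of the hippocampal and choroid plexus markers in the result was not tested.

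*Cry1* ran from 333 to 486 in the amygdala (median 413) and from 197 to 339 in the hippocampus (median 262). It was lower in the hippocampus in 16 of 16 mice, although the ranges overlapped slightly, with a log2 fold change of -0.68 ± 0.07 (SE, DESeq2 adjusted *p* = 1.56e-18). *Dbp* ran from 2104 to 4042 (median 3128) and from 1247 to 2648 (median 2005), and was also lower in the hippocampus in 16 of 16 mice (-0.56 ± 0.10, DESeq2 adjusted *p* = 5.91e-08). The third lower member was *Nr1d2*, in 14 of 16 mice (-0.23 ± 0.06, DESeq2 adjusted *p* = 0.00113).

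*Arntl* ran from 272 to 527 in the amygdala (median 401) and from 381 to 625 in the hippocampus (median 574). It was higher in the hippocampus in 15 of 16 mice (0.41 ± 0.09, DESeq2 adjusted *p* = 3.82e-05). *Arntl* and *Dbp* thus differed between the regions in opposite directions, but other genes that the pair drives did not all follow *Dbp*. *Per2* (0.32 ± 0.08, 15 of 16 mice), *Per3* (0.21 ± 0.07, 14 of 16) and *Cry2* (0.13 ± 0.04, 14 of 16) were higher as well, with DESeq2 adjusted *p* of 0.000763, 0.0147 and 0.00128. *Clock* was higher in 13 of 16 mice (0.18 ± 0.09, DESeq2 adjusted *p* = 0.0801).

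*Per1* (0.06 ± 0.07, 95% interval -0.08 to 0.20) and *Nr1d1* (-0.01 ± 0.06, interval -0.13 to 0.12) did not pass the test. The call of *Clock* was lost without any 1 of WT2, *Kmt2a*-HET1, *Kmt2a*-HET3, *Kmt2a*-HET4, *Kdm5c*-KO2 or DM4, and the value was 0.16 to 0.23 with each of 16 mice left out in turn. In the 8 WT libraries alone, *Cry1* (-0.58) and *Dbp* (-0.50) were called. With size factors from spike-in RNA the median of all genes moved to 0.64, and *Cry1* (-0.01) and *Dbp* (0.0033) lay below that median, while *Nr1d2* (0.41), also below it, turned from lower to higher in the hippocampus. Of the 20 other clock genes 9 were higher and 7 lower in the hippocampus.

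**Figure D3:**
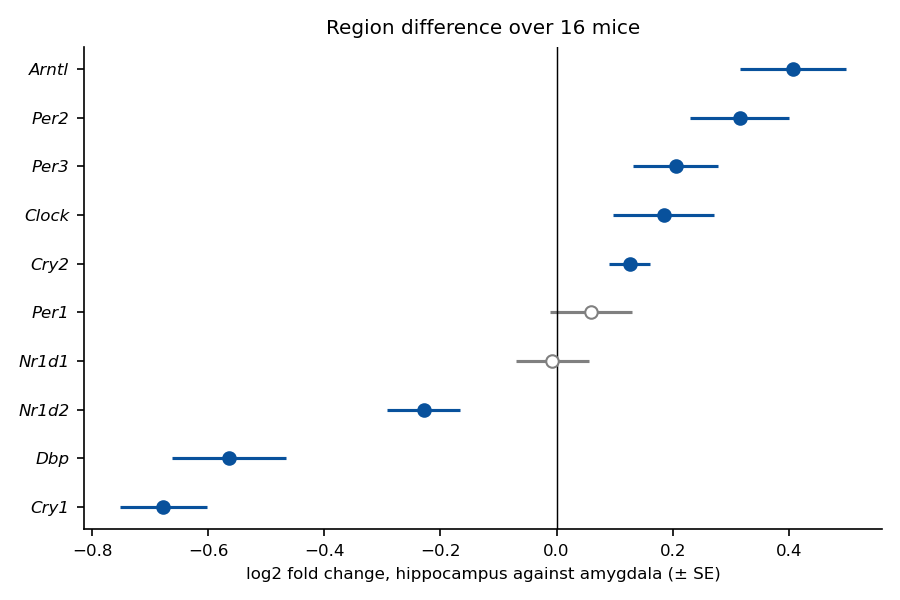
Log2 fold change of each clock gene in the hippocampus against the amygdala over 16 mice, with SE. Filled points passed the test at an adjusted p under 0.1. *Cry1*, *Dbp* and *Nr1d2* lie below 0, *Per1* and *Nr1d1* at 0, and *Arntl* highest.

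The third question was how far mice of the same genotype were spread, and whether a mouse kept its place in both regions. The SD of log2 values within genotypes was 0.317 for *Dbp* in the amygdala and 0.303 in the hippocampus, above 92.5% and 92.02% of genes of a similar level (within 1.5-fold), whose medians were 0.157 and 0.143. *Clock* had 0.316 and 0.203, and *Arntl* 0.262 and 0.259. *Cry2* was the least spread, at 0.0617 in the amygdala, above 3.13% of such genes, and 0.115 in the hippocampus.

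The ratio of *Dbp* to *Arntl* within a library does not depend on library scaling. On the log2 scale it was 3.37, 2.89, 2.39 and 2.00 in the amygdala of WT1 to WT4, and 2.88, 3.17, 2.24 and 3.04 in *Kmt2a*-HET1 to 4. It was 3.25, 3.14, 2.84 and 2.47 in *Kdm5c*-KO1 to 4, whereas the values were 3.45, 2.84, 3.13 and 3.89 in DM1 to DM4. The mice thus spread over 1.89 log2 units, or 3.71-fold, and the 4 genotypes overlapped.

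In the hippocampus the ratio was 2.60, 1.71, 1.75 and 1.52 in WT, and 1.65, 2.04, 1.34 and 2.02 in *Kmt2a*-HET. It was 2.76, 2.15, 2.29 and 1.66 in *Kdm5c*-KO, whereas the values were 2.08, 1.57, 1.77 and 2.55 in DM. Over all 16 mice the spread was 2.68-fold. WT1 was highest and WT4 lowest of the WT mice in both regions, *Kmt2a*-HET3 was lowest of its genotype in both, and DM4 was highest of its genotype in both.

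Agreement between the regions was measured as Pearson *r* over 16 mice of log2(normalised count + 1), centred on the genotype mean, with a two-sided permutation test within genotypes, adjusted over 16586 genes. *Dbp* in the hippocampus was 2527, 1838, 1839 and 1701 in WT1 to WT4 and 1813, 2466, 1206 and 2217 in *Kmt2a*-HET1 to 4. It was 2533, 1997, 1958 and 1858 in *Kdm5c*-KO1 to 4, whereas the values were 2550.0, 1741, 1932 and 2153 in DM1 to DM4. *Kmt2a*-HET3 and WT4, low in the amygdala, were low here too, and WT1, *Kdm5c*-KO1 and DM1 were high in both.

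The *r* of *Dbp* was 0.735 (permutation *p* = 0.0009, adjusted 0.0959), Spearman's rho was 0.735 (permutation *p* = 0.00199), and 13 of 16 mice deviated in the same direction in both regions. Of all genes 1.28% were called, and the median *r* was 0.198. Without *Kdm5c*-KO3 and WT4, the mice farthest from the median, *r* was 0.821. The adjusted *p* sat close to the threshold. With 1 mouse left out in turn *r* was 0.682 to 0.798, and the call was kept only without *Kdm5c*-KO3.

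*Per1* was 2781, 2248, 2377 and 2174 in the amygdala of WT1 to WT4, and 2989, 2421, 2126 and 2321 in their hippocampus. In *Kmt2a*-HET1 to 4 amygdala values were 2859, 2807, 1832 and 2696, and hippocampal values 2724, 3228, 1879.7 and 2646. *Kmt2a*-HET3 was far below its group in both regions.

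*Kdm5c*-KO1 to 4 had 2547, 2686, 2493 and 2306, and 1971, 2478, 2457 and 2252. DM1 to DM4 had 2943, 2536, 2715 and 2721, and 3039, 2067, 2693 and 2418. The *r* of *Per1* was 0.804 (rho 0.694, permutation *p* = 0.00575 and 0.011, adjusted 0.152), and it fell to 0.464 without *Kmt2a*-HET3 and WT1, so that much of the relation rested on these 2 mice.

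For *Per2* *r* was 0.638 (rho 0.544, permutation *p* = 0.0117 and 0.0517, adjusted 0.198) and 0.546 without its 2 farthest mice. For *Per3* it was 0.619 (rho 0.753, permutation *p* = 0.0176 and 0.00491, adjusted 0.227) and 0.514 without them. *Arntl* (0.573) and *Clock* (0.542) followed. *Nr1d2*, *Cry1* and *Nr1d1* had 0.327, 0.303 and 0.231, and *Cry2*, the least spread, had -0.0175. The median over the 10 members was 0.557. At an unadjusted *p* under 0.05, 4 of 10 members passed against 14.5% of all genes.

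Other genes moved between the same mice. All 8 immediate early genes had an *r* between the regions of 0.749 to 0.913, and 4 of them were called (*Fos*, *Fosb*, *Junb*, *Npas4*). Of the 20 other clock genes 0 were called, with 0.653 for *Ciart* as the highest. Because the mice numbered 1 stood apart, the values were computed again without them, over 12 mice, a choice made after the data were seen. The median *r* of all genes then fell to -0.0178 and 0 genes were called, with 1029 at an unadjusted *p* under 0.05. *Dbp* had 0.604, *Per1* 0.845, *Per3* 0.771, *Per2* 0.658, *Nr1d2* 0.583 and *Arntl* 0.574, and *Clock* had -0.533.

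**Figure D4:**
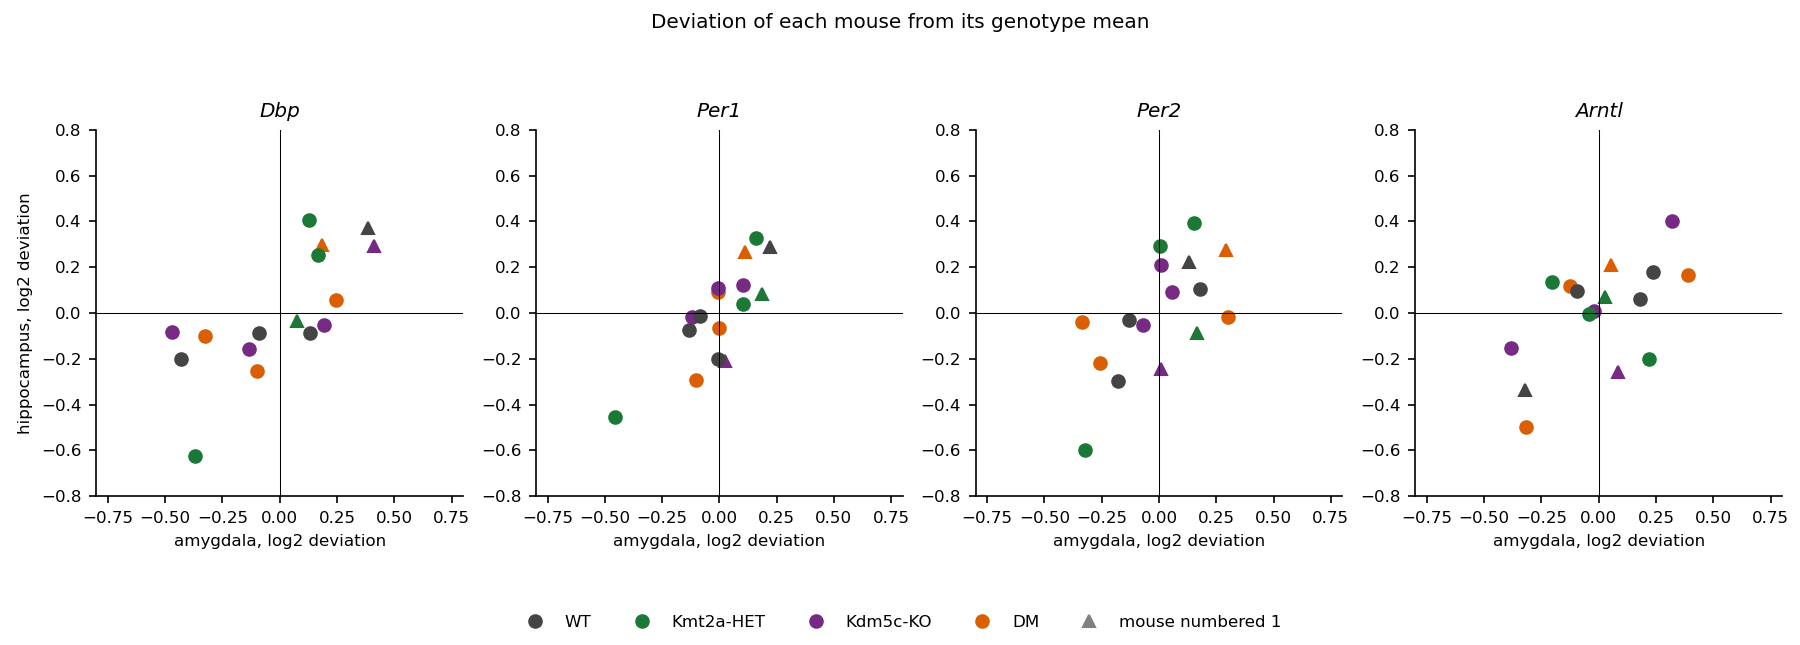
Log2 deviation of each mouse from its genotype mean in the amygdala (horizontal) and the hippocampus (vertical) for *Dbp*, *Per1*, *Per2* and *Arntl*. Colours are genotypes and triangles the mice numbered 1. Points follow the diagonal for *Dbp* (r = 0.735) and *Per1* (r = 0.804), with *Kmt2a*-HET3 at the lower left in the panels of *Dbp*, *Per1* and *Per2*.

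The last question was which genes moved with *Dbp* between mice of a genotype. In the amygdala 4 of the 9 other members were called, where 16.4% of 16585 genes were. *Nr1d1* (*r* = 0.738, rho 0.674), *Per2* (0.683, rho 0.676) and *Per1* (0.625, rho 0.685), all driven by the pair of BMAL1 and CLOCK, were higher in mice with more *Dbp*. Their adjusted permutation *p* were 0.0706, 0.0556 and 0.0774. *Clock* ran the other way, at -0.832 (rho -0.888, adjusted permutation *p* = 0.0498).

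*Clock* was 989, 1577, 1676 and 2185 in WT1 to WT4, in the reverse order of *Dbp*, and 1326, 1676, 1603 and 1574 in *Kmt2a*-HET. It was 1099.5, 1422, 1746 and 1619 in *Kdm5c*-KO, whereas the values were 1354, 1765, 1831 and 1290.0 in DM. The mice numbered 1 had the lowest *Clock* in 3 of 4 genotypes. *Arntl*, its partner, had an *r* of -0.266, and -0.612 without *Kdm5c*-KO3 and WT4. For *Nr1d1*, *Per2*, *Per1* and *Clock*, *r* without these mice was 0.55, 0.827, 0.708 and -0.763.

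The calls, which are adjusted over all genes, rested on single mice, while *r* kept its direction. With each mouse left out in turn *r* was -0.88 to -0.783 for *Clock*, 0.658 to 0.867 for *Nr1d1*, 0.614 to 0.793 for *Per2* and 0.551 to 0.713 for *Per1*. The count of members called was 0 without WT1, without WT3, without WT4, without *Kdm5c*-KO1 or without *Kdm5c*-KO3, 1 without *Kmt2a*-HET3 and 2 without DM4. In the 5 cases with 0, the count over all genes fell from 2725 to between 0 and 229. In these cases 4 to 5 members had an unadjusted permutation *p* under 0.05, against 4 over all 16 mice. Without the mice numbered 1 no gene was called (2423 at an unadjusted *p* under 0.05), with 0.675 for *Nr1d1*, 0.754 for *Per2*, 0.587 for *Per1*, -0.784 for *Clock* and 0.854 for *Per3*. *Per3* had been -0.0747 over all 16 mice.

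Long and short genes also shifted between amygdala libraries. The median deviation of genes with over 6000 exonic bases minus that of genes under 2000 had an *r* of -0.782 with *Dbp* (rho -0.715, permutation *p* = 0.00315 and 0.00858), and -0.625 without *Kdm5c*-KO3 and WT4. It was -0.273 in the hippocampus (rho -0.294, permutation *p* = 0.377 and 0.327), and -0.299 without *Kmt2a*-HET2 and *Kmt2a*-HET3. In the amygdala it was -0.451 to -0.112 in the mice numbered 1 and -0.132 to 0.356 in the others. *Clock* (13727 exonic bases), *Per3* (9608), *Arntl* (7523) and *Cry2* (6320) are long genes by this limit, and *Dbp* (2993) is not. The ratio of *Dbp* to *Arntl* thus sets a shorter gene against a long one, and such a shift can enter it. The part of this shift in these results was not tested. *Kmt2a* and *Kdm5c* had an *r* of -0.674 and -0.711 with *Dbp* in the amygdala. Summed astrocyte markers had -0.762 and summed endothelial markers -0.569, and their part was not tested either.

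In the hippocampus 0% of 16585 genes were called, with 638 genes, 3.85%, at an unadjusted *p* under 0.05, and no member passed. Of the 9 members 5 had an unadjusted permutation *p* under 0.05. These were *Nr1d2* (*r* = 0.738), *Nr1d1* (0.738), *Per1* (0.725), *Per2* (0.724) and *Cry1* (0.58), with rho of 0.626, 0.574, 0.665, 0.626 and 0.406. Without *Kmt2a*-HET2 and *Kmt2a*-HET3, which had the most and the least *Dbp* for their genotype, *r* was 0.415, 0.411, 0.46, 0.452 and 0.423, so that much of each relation rested on these 2 mice. *Clock* had -0.414 and *Arntl* -0.151, and -0.655 and -0.53 without them. Summed blood markers had an *r* of 0.635 and summed endothelial markers of -0.600 with *Dbp* in the hippocampus, and their part was not tested. The median over the 9 members was 0.58 in the hippocampus and -0.0588 in the amygdala, against 0.00467 and -0.00354 over all genes.

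*Nr1d1*, *Per1* and *Per2* were thus above 0.6 in both regions. The 5 genes outside the 10 members that were most like *Dbp*, by the smaller *r* of the 2 regions over 16 mice, were *Ciart* (0.81 in the amygdala and 0.783 in the hippocampus), *Exosc2* (0.808 and 0.748), *Tsc22d3* (0.76 and 0.7), *Ifrd2* (0.693 and 0.749) and *Lad1* (0.692 and 0.749). *Ciart* is the clock-controlled repressor with 3 E-boxes shown above, and *Tsc22d3* encodes GILZ, a protein induced by glucocorticoids. *Ciart* was 324, 309, 215 and 185 in the amygdala of WT1 to WT4, against 259.8, 139, 189 and 131 in their hippocampus. With *Dbp* in the amygdala, 1 of the 20 other clock genes (*Ciart*) and 1 of the 6 glucocorticoid-induced genes (*Tsc22d3*) were called, and 0 of the 8 immediate early genes were, against the 16.4% of all genes.

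Because *Per1* is also an immediate early gene, it was set beside activity-induced genes, as a description over 16 mice of the same libraries. Among the 8 immediate early and 6 glucocorticoid-induced genes, those with the largest *r* with *Per1* by the smaller value of the 2 regions were *Junb* (0.643 in the amygdala and 0.765 in the hippocampus), *Egr1* (0.621 and 0.785) and *Nr4a1* (0.607 and 0.763). *Tsc22d3* had 0.592 and 0.711. *Junb* was 1850.5, 1375, 1440.3 and 1686 in the amygdala of the 4 mice numbered 1, and in the others 539 to 1385. How much of the spread of *Per1* goes with the clock and how much with activity was not tested.

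**Figure D5:**
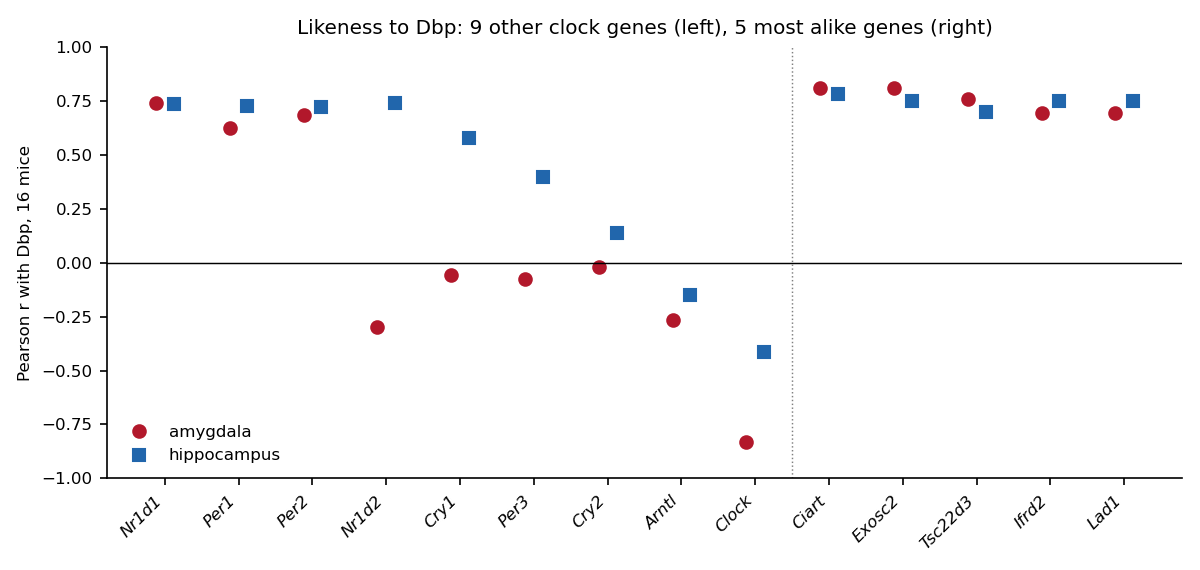
Pearson r with *Dbp* over 16 mice, centred on genotype, in the amygdala (circles) and the hippocampus (squares), for the 9 other clock genes and the 5 most alike genes outside them. *Nr1d1*, *Per1* and *Per2* lie above 0.6 in both regions, *Nr1d2* at -0.299 and 0.738, and *Clock* below 0 in both.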

How the data were processed

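Expected counts per gene and per transcript were deposited by the authors, whose methods describe STAR alignment to mm10 and counting with featureCounts (STAR 2.5.3a, Subread 1.5.0 and DESeq2 1.14.1 in the submitters' processing notes). The estimator behind the expected counts is not given in the sources used here, and 7.08% of gene values were not whole. Counts were rounded, 92 spike-in (ERCC) sequences were set aside, and 53620 of 53715 genes had a symbol. Genotypes were compared within a region with DESeq2 1.42.0 (R 4.3.3, Wald test, adjusted p under 0.1 by Benjamini-Hochberg, the 4 genotypes in one fit), and regions over 32 libraries. edgeR 4.0.16 (quasi-likelihood test) was an alternative. Correlations used log2(normalised count + 1), genes with a mean of at least 10, and 100000 permutations of mice within genotypes, whose smallest p is 1e-05. The labels name the mouse of both regions. Median r of the deviations was 0.123 within a mouse and -0.057 between mice, and was over 0.1 in 10 of 16 mice. The labels do not say that a number links mice of different genotypes. The p-values cover the spread between these mice.

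The 10 members and the lists were chosen with earlier results of these data known. By rule, all members were described, as were other clock genes that passed a test (with 1 exception, not reported here), up to 3 induced genes most like *Per1* and the 5 genes most like *Dbp*. *Sgk1*, *Fosb* and *Npas4* were named after their values were seen. Scripts were tested on simulated data. Alternatives were other scalings, filters, pseudocounts, a mouse block and leaving out mice. The striatal list is given without 1 of its genes.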

Additional observations from a re-analysis of the deposited data

Results flagged for a closer look

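In 4 of 80 groups of 4 mice, 1 mouse lay far from the other 3 by Dixon's test, and chance flags about 1 in 20 groups, or 4 here. *Per1* in the amygdala was 1832 in *Kmt2a*-HET3 and 2696 to 2859 in the others. *Per3* in the hippocampus was 1108 in DM4 and 888 to 924 in the others. *Arntl* in the hippocampus was 368 in DM4 and 564 to 602 in the others. *Dbp* in the hippocampus was 2527 in WT1 and 1701 to 1839 in the others.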

How the results depend on the processing

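The count of members called stayed at 0 under every alternative run for the 10 genotype comparisons and 3 tests of a difference between regions. Between the regions 8 members were called, also with edgeR and with the mouse as replicate block (*Dbp* -0.56, *Cry1* -0.68), 7 to 8 with each mouse left out, and 2 in WT libraries only. With the replicate number as block between genotypes 0 members were called as well. For agreement between the regions the count of 1 became 2 without centring and 0 with Spearman's rho, with ERCC size factors and without the 4 mice numbered 1, and was 0 to 1 with each mouse left out. With *Dbp* in the amygdala the count of 4 became 9 with ERCC size factors and 0 without the mice numbered 1, and was 0 to 4 with each mouse left out. With *Dbp* in the hippocampus ERCC size factors gave 9 in place of 0. Those factors give every gene of a library a common shift, and the median *r* of all genes with *Dbp* was then 0.889 and 0.871. They also turned the direction of *Nr1d2* (0.41) and *Dbp* (0.0033) between regions, of the *r* of *Dbp* between regions (-0.243) and of *Clock* with *Dbp* in the amygdala (0.666).

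Over all genes edgeR called fewer than DESeq2. In the amygdala these were 69 against 144 for *Kdm5c*-KO and 89 against 211 for DM, both against WT, and 61 against 158 for DM against *Kmt2a*-HET. In the hippocampus they were 70 against 195, 63 against 170 and 54 against 117. The replicate block raised these counts. In the amygdala *Kmt2a*-HET against WT went from 3 to 326, *Kdm5c*-KO from 144 to 507, DM from 211 to 601, DM against *Kdm5c*-KO from 1 to 357 and DM against *Kmt2a*-HET from 158 to 547. In the hippocampus they went from 0 to 248, 195 to 506, 170 to 480, 2 to 402 and 117 to 436. For the difference between regions in DM 4 genes were called, 15 with the mouse as block and 2 by edgeR, and in *Kdm5c*-KO 4, and 0 by edgeR. The shares of all genes given with the genotype comparisons are without the block. Same-numbered mice of different genotypes had a median *r* of deviations of 0.072 in the amygdala and -0.0111 in the hippocampus, over 0.1 in 10 of 24 pairs in each, and 7 and 6 of 16 libraries were most like their own number. Among mice numbered 1 it was over 0.1 in 6 of 6 and 4 of 6 pairs. The numbers were not taken as pairs, and whether number 1 marks a batch was not tested. The cause of the differences in counts was not tested. The time of dissection is not given in the sources used here.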
